A study of Mus musculus with 20 samples.

Results

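The genes described here are 10 genes of voltage-gated calcium channels, Cacna1a, Cacna1b, Cacna1c, Cacna1d, Cacna1e, Cacna1h, Cacna2d1, Cacna2d2, Cacna2d3 and Cacnb4, of 21887 protein-coding genes in the annotation. The rule that defines them uses their names and no measured value, although they were picked with earlier results of these data known. Peaks were assigned to a gene when they overlapped its body or the 20 kb on either side by at least 1 bp (mouse genome build mm10). The data are CUT&Tag profiles, in which an antibody directs a transposase to a chromatin protein so that the adjacent DNA is cut out and sequenced. All libraries came from nuclei of ganglia labelled CVG, taken from C57BL/6J embryos at E11.5 (an embryonic day), with no treatment or mutant allele in the labels. CVG is the usual abbreviation of the cochleovestibular ganglion, the embryonic source of the auditory and vestibular neurons. The targets were ISL1 and POU4F1, homeodomain transcription factors of sensory neurons, and 3 modified forms of histone H3: H3K4me3 (typical of promoters), H3K27ac (of active promoters and enhancers) and H3K27me3 (of chromatin repressed by Polycomb). The series asks how both factors act together in inner ear sensory neurons.

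Of 20 libraries, 14 were used: 1 labelled ISL1_26 and 3 labelled ISL1_70, which carry the same antibody label and are treated as 4 libraries of ISL1, 2 of POU4F1, 3 of H3K27ac, 2 of H3K4me3 and 3 of H3K27me3. Not analysed here were 6 IgG libraries (3 labelled IgGR and 3 IgGM). What 26 and 70 mean is not in the labels, nor is it stated there whether libraries of a target came from separate embryos, so agreement between them may be technical. The lists give no read totals, the depth is unknown, and no level per library can be tested. Genes are therefore described by which libraries called a peak, beside the same share over all protein-coding genes.

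Voltage-gated calcium channels open when the membrane depolarises and let calcium into the cell, which couples electrical activity to transmitter release, firing pattern and gene expression. The pore is an α1 subunit, and its gene sets the current type: L-type (Cacna1c, Cacna1d), P/Q-type (Cacna1a), N-type (Cacna1b), R-type (Cacna1e) and low-voltage-activated T-type (Cacna1h). Extracellular α2δ subunits (Cacna2d1, Cacna2d2, Cacna2d3) and cytoplasmic β subunits (Cacnb4) promote delivery of the pore to the membrane and shape its gating. In the mature inner ear, the L-type channel encoded by Cacna1d drives transmitter release from hair cells onto the neurons of this ganglion.

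Start sites were taken from RefSeq promoter sequences (assembly GRCm38.p6, the assembly of mm10), which held 13 sites for 8 of the 10 genes. Cacna1a and Cacna1h had no entry. For 8 of these sites the 250 bases before the start are shown, each 5′ to 3′ on the strand of the gene, because 3 genes (Cacna1c, Cacna1d and Cacnb4) have starts with and without replicated chromatin marks, and because replicated ISL1 regions lay over starts of Cacna1e, Cacna1b and Cacnb4. Capitals mark CG pairs.
Cacna1c, marked start (chr6:119108496-119108745, minus strand): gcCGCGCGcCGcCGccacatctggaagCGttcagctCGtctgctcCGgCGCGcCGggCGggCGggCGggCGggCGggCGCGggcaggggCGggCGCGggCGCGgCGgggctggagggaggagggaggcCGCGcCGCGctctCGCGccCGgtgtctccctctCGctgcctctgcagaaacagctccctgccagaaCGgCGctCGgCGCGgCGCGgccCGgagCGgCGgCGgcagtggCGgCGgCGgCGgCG
Cacna1c, distal unmarked start (chr6:119196410-119196659, minus strand): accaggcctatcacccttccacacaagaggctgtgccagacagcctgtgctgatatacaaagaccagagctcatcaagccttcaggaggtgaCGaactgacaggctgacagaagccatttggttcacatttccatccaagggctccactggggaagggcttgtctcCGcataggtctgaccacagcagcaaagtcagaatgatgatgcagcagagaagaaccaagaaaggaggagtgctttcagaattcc
Cacna1d, marked start (chr14:30353487-30353736, minus strand): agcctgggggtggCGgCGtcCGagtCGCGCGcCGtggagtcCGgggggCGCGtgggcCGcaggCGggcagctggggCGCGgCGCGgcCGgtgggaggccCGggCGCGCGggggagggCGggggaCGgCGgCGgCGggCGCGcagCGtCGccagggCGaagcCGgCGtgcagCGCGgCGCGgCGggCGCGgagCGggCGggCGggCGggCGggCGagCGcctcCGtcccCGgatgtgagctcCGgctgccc
Cacna1d, distal unmarked start (chr14:30491157-30491406, minus strand): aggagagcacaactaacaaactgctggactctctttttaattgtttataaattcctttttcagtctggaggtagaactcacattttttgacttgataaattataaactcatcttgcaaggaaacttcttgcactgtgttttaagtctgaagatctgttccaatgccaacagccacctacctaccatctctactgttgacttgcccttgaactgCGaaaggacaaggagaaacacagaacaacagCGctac
Cacna1e (chr1:154725921-154726170, minus strand): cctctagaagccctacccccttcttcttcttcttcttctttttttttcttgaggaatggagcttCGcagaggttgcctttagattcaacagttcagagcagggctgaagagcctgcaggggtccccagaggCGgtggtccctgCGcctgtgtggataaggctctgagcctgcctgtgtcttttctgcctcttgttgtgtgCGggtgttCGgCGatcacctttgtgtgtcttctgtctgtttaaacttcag
Cacna1b (chr2:24763153-24763402, minus strand): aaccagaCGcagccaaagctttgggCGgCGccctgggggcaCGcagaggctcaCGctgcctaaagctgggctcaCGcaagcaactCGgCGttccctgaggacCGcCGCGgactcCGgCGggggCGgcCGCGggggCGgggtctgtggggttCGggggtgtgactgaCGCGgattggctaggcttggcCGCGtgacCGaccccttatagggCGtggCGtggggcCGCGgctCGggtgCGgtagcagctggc
Cacnb4, upstream marked start (chr2:52676144-52676393, minus strand): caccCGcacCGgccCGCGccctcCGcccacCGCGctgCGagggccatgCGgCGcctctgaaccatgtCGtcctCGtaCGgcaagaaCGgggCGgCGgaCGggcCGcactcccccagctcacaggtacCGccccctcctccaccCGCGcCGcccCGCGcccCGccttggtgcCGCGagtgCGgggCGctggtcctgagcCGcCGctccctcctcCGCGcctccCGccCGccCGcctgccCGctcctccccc
Cacnb4, unmarked start (chr2:52558612-52558861, minus strand): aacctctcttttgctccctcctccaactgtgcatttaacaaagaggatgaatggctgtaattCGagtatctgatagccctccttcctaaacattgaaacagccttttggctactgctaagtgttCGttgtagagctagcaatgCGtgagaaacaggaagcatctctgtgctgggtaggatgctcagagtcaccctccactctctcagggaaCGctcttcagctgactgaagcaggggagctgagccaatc
In these 250 bases, the marked start of Cacna1c holds 48 CG pairs, its distal unmarked start 2 and its other unmarked start, not shown, 5. The marked start of Cacna1d holds 50 and the unmarked one 2, and those of Cacnb4 shown hold 37 and 4. The Cacna1e sequence holds 6 CG pairs and the Cacna1b sequence 29.

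Every library with a list of over 10000 peaks had peaks at all 10 genes. The 4 ISL1 libraries placed 223, 190, 65 and 110 peaks in the gene windows (ISL1_26 replicate 1, then ISL1_70 replicates 1 to 3), the POU4F1 libraries 73 and 42, and the H3K27ac libraries 18, 256 and 375. The H3K4me3 libraries placed 45 and 39 and the H3K27me3 libraries 47, 36 and 99. The lists ran from 8855 to 168144 peaks, and the gene windows took between 0.144% (POU4F1 replicate 2) and 0.285% (H3K4me3 replicate 1) of each list. Some libraries stood apart. H3K27ac replicate 1 had the list of 8855 peaks and none at Cacna1c or Cacna1e. The library labelled H3K4me3 replicate 1 had 45 peaks in the windows, of which 39 overlapped a peak of H3K27me3 replicate 3 and 8 overlapped a peak of H3K4me3 replicate 2, so it is named by its label and given apart. In H3K27me3 replicate 1, 14561 of 19243 peaks (75.7%) shared a single −log10 q of 1.09, so its peaks can hardly be ranked and no percentile is given for them. Its peaks at the gene starts had fold enrichments over the peak caller's background (the authors' values) of 1.99 to 2.98.

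**Figure D1:**
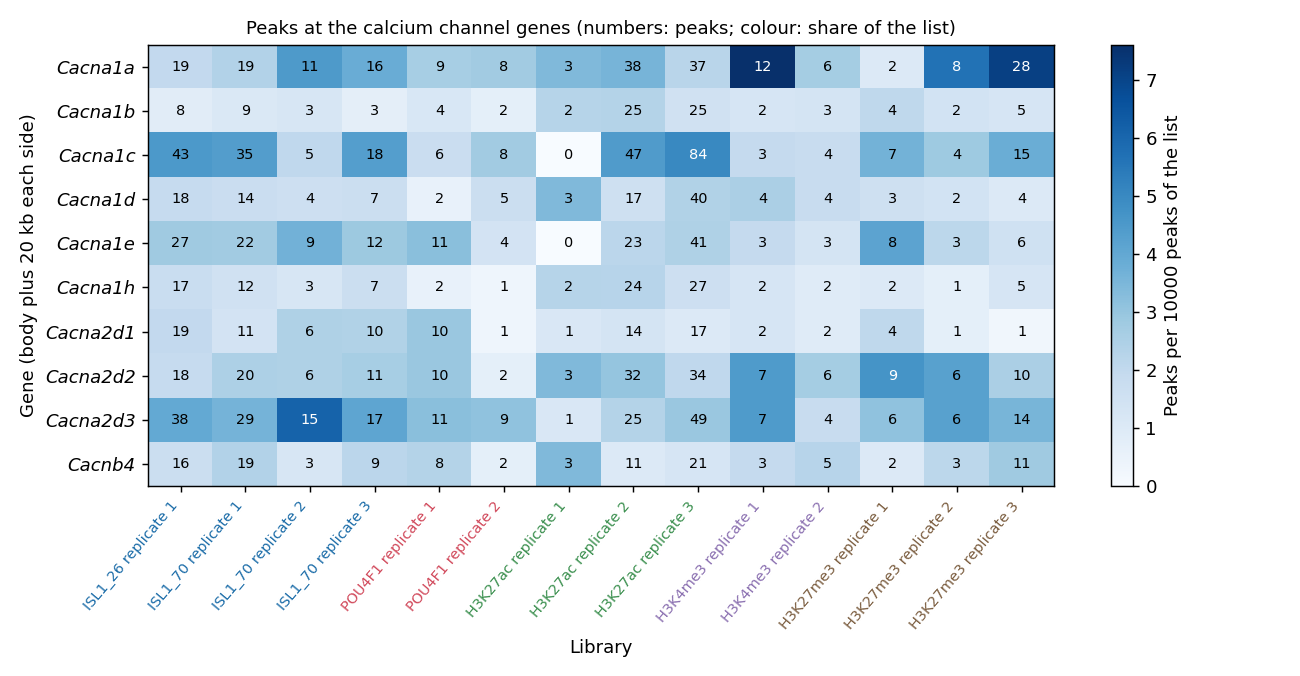
Peaks of each of the 14 libraries (columns) at each gene (rows); the printed number is the count of peaks in the gene body plus 20 kb each side, and the colour is that count per 10000 peaks of the library's list. The longest genes, Cacna1c and Cacna2d3, hold the most ISL1 peaks in the ISL1_26 library (43 and 38), and Cacna1a holds the most H3K27me3 peaks in H3K27me3 replicate 3 (28).

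Acetylated and Polycomb-type histone marks lay together at the starts of most of these genes. A region was called replicated when peaks of at least 2 libraries of a target overlapped in it, and a start counted as marked when such a region lay within 1 kb of it. For Cacna1a and Cacna1h, both annotated gene ends stood in for the start, as for every other gene without an entry in the promoter table. Replicated H3K27me3 marked 9 of the 10 genes, beside 19.6% of all protein-coding genes and 31.6% of the 4033 genes at least as long as the shortest of these channel genes (62 kb, Cacna1h). Replicated H3K27ac marked 8 of 10, beside 46.8% and 60.3%. Of the 8 genes with a known start, 7 had replicated H3K27ac and all 8 had replicated H3K27me3. Cacna1a was counted for each mark through a gene end. Both marks were replicated at the same start in 7 of 10 (Cacna1b, Cacna1c, Cacna1e, Cacna2d1, Cacna2d2, Cacna2d3 and Cacnb4), beside 6.44% of all genes and 12.6% of the long ones. Of the 3 others, Cacna1d had H3K27me3 alone, Cacna1a had the marks at opposite gene ends, and Cacna1h had neither within 1 kb of an end. Without H3K27ac replicate 2 or replicate 3, the count with H3K27ac fell to 3 or 4, and the count with both marks also fell to 3 or 4. In bulk nuclei, both marks on the same chromosomes and each mark in a different set of cells cannot be told apart.

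**Figure D2:**
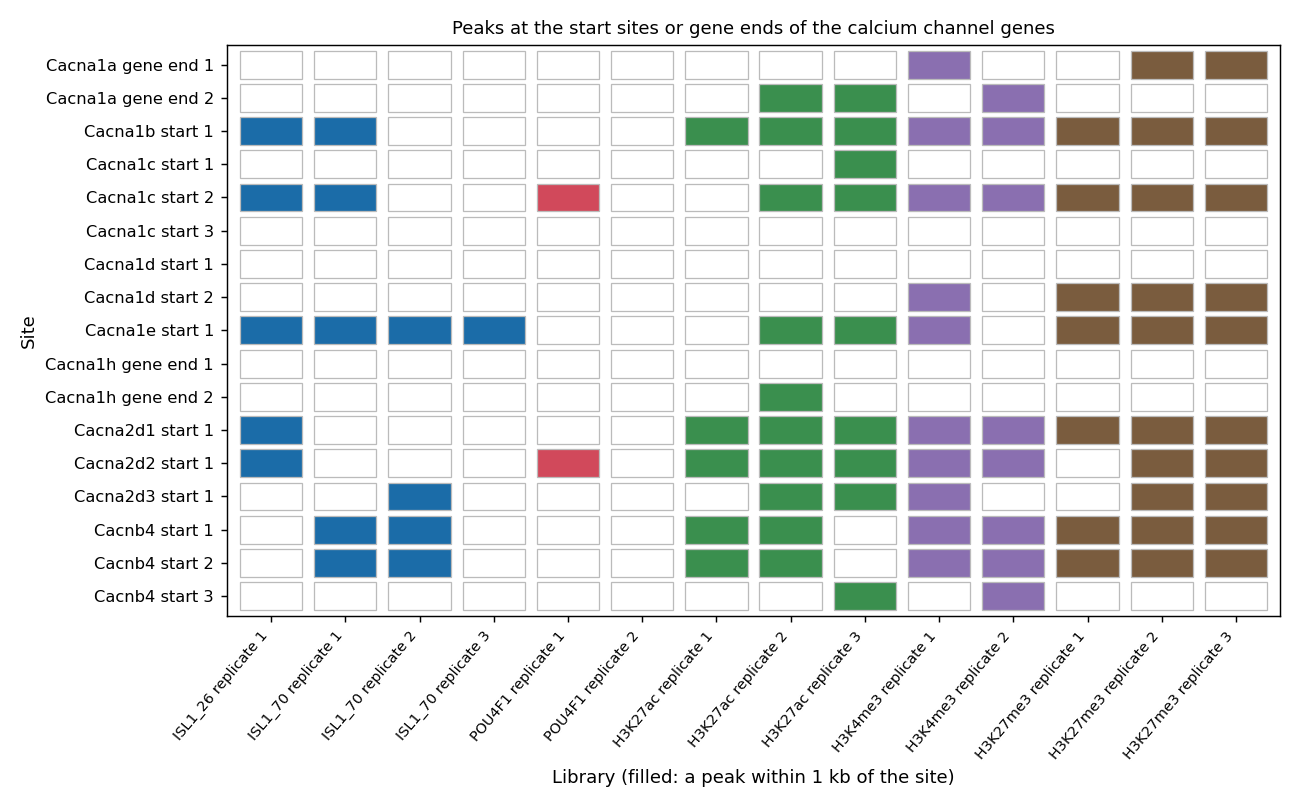
Presence (filled) or absence (open) of a peak within 1 kb of each start site, or of each gene end for Cacna1a and Cacna1h (rows), in each of the 14 libraries (columns; colours separate the targets). Of the starts of Cacna1c, Cacna1d and Cacnb4, those with H3K27me3 have it in all 3 libraries and the alternative starts in none.

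Among the L-type genes, Cacna1c, whose channel is widespread in neurons and heart muscle, had 3 annotated starts, and only the one at position 119108495 was marked by replicated regions. H3K27me3 replicates 2 and 3 called peaks of 3.52 and 4.45 kb there, at folds of 53.4 and 91.3 over background, and replicate 1 a peak of 0.584 kb at a fold of 1.99. Here and at the other starts, values are those of the strongest peak of a library within 1 kb. The H3K27ac peaks of replicates 2 and 3 were shorter than 1 kb, with folds of 5.58 and 7.85, and H3K27ac replicate 1 had none. These strongest peaks did not overlap each other, so the replicated H3K27ac region includes a further peak of replicate 2 or 3. POU4F1 replicate 1 had a peak of fold 58.0 at the upstream side, at percentile 8.58 of its list (a low percentile means a strong peak by q-value), and POU4F1 replicate 2 had none. ISL1_26 replicate 1 and ISL1_70 replicate 1 each had a peak within 1 kb, and these did not overlap, so ISL1 was not replicated there. The distal start had a single peak, of H3K27ac replicate 3, and the third start had none in any library.

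Cacna1d was the one gene with a known start that carried H3K27me3 and no H3K27ac. All 3 H3K27me3 libraries had a peak at the start at position 30353486, at folds of 2.98, 24.1 and 51.2, and none of the 3 H3K27ac libraries had one. The library labelled H3K4me3 replicate 1 had a peak of 1.37 kb over the same bases, and H3K4me3 replicate 2 had none. The distal start at position 30491156 had no peak of any of the 14 libraries within 1 kb. No ISL1 or POU4F1 library had a peak at either start.

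Among the α1 genes of the P/Q, N and R types, which carry the presynaptic and somatic calcium currents of many neurons, Cacna1b had a start with peaks of all 3 libraries of H3K27ac (folds 23.8, 14.5 and 25.4) and all 3 of H3K27me3 (2.98, 10.9 and 4.30). H3K4me3 replicate 2 had a peak there at a fold of 119 and percentile 1.48 of its list. The library labelled H3K4me3 replicate 1 had one at a fold of 17.1. Peaks of ISL1_26 replicate 1 and ISL1_70 replicate 1 were joined into a region of 1564 bp that reaches over the start. The strongest peak of ISL1_26 replicate 1 (percentile 57.5) ended before the start, and that of ISL1_70 replicate 1 (34.8) covered it. Peaks of the other ISL1 libraries were not within 1 kb.

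At Cacna1e, all 4 ISL1 libraries had a peak within 1 kb of the start, together with H3K27ac replicates 2 and 3 (folds 5.23 and 14.2) and all 3 H3K27me3 libraries (2.98, 17.6 and 10.2). H3K4me3 replicate 2 had no peak there. A further ISL1 region lay at the annotated upstream end of the gene, 159 kb above this start (chr1:154883857-154885278), called by ISL1_26 replicate 1 and ISL1_70 replicate 1. It overlapped H3K27me3 in all 3 libraries and a single H3K27ac library, replicate 3. The promoter table holds no start at that end.

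Cacna1a carried its marks at opposite ends, and its strand is not in the promoter table. At the left end (position 84338631), H3K27me3 replicates 2 and 3 had peaks of 4.28 and 6.62 kb, at folds of 49.7 and 79.6, and the library labelled H3K4me3 replicate 1 a peak of 4.15 kb. At the right end (position 84640251), H3K27ac replicate 3 had a peak of 6.97 kb at a fold of 88.4, at percentile 0.0672 of its list, and H3K27ac replicate 2 a peak of 1.72 kb at percentile 3.93. The H3K4me3 replicate 2 peak at this end was weak, at a fold of 3.32 and percentile 97.5. H3K4me3 replicate 2 had a peak in the gene body, 76.8 kb from the left end (chr8:84415387-84416438), under peaks of 9 other libraries that included all 3 of H3K27ac, 2 of H3K27me3 and 2 of ISL1. For Cacna1h, the T-type gene, the strongest H3K4me3 replicate 2 peak lay 2.33 kb inside the right end (chr17:25431653-25434000), at a fold of 70.4 and percentile 5.34, under peaks of 9 other libraries, including all 3 of H3K27ac and all 3 of H3K27me3. It lay outside the 1 kb window, so Cacna1h is not counted with either mark above.

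The α2δ genes and Cacnb4 had both marks at their starts. Cacna2d1, whose protein is the target of gabapentin, had H3K27ac in all 3 libraries (folds 8.57, 16.8 and 22.6) and H3K27me3 in all 3 (2.98, 5.37 and 46.5). Cacna2d2 had H3K27ac in all 3 (20.9, 4.29 and 15.2) and H3K27me3 in replicates 2 and 3 (41.1 and 23.9), with the longest H3K27me3 cover of the marked starts, 6.78 kb. Cacna2d3 had H3K27ac in replicates 2 and 3 (9.08 and 19.9) and H3K27me3 in replicates 2 and 3 (6.30 and 16.3). These H3K27me3 peaks did not overlap each other. A further peak of H3K27me3 replicate 2, at a fold of 7.68 and just beyond 1 kb from the start, overlapped the replicate 3 peak. Cacnb4, the β subunit gene mutated in the lethargic mouse, had 2 neighbouring starts (positions 52676143 and 52675859) under the same peaks, of H3K27ac replicates 1 and 2 (13.3 and 4.70), all 3 H3K27me3 libraries (1.99, 53.4 and 4.21) and H3K4me3 replicate 2 (17.4). The library labelled H3K4me3 replicate 1 had a peak there at a fold of 56.3. H3K27ac replicate 3, the longest list, had no peak at these starts. The third Cacnb4 start had 1 peak of H3K27ac replicate 3 and 1 of H3K4me3 replicate 2.

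Marked and unmarked starts differed in base composition. CpG-rich was defined, after the peaks had been seen, as a ratio of observed to expected CG pairs of at least 0.6 and at least 50% G and C in the 300 bases of the promoter table (250 before and 50 after the start). All 8 CpG-rich starts had replicated H3K27me3 and 7 had replicated H3K27ac, the exception being Cacna1d. Among the 8, the neighbouring Cacnb4 starts have overlapping windows and lie under the same peaks, so they are not independent. Of the 5 other starts, 4 had neither mark, and Cacna1e, with a ratio of 0.482 at 55.3% G and C, had both. The ratio was 1.16 at the marked start of Cacna1c against 0.152 and 0.355 at its other starts, and 1.18 at the marked start of Cacna1d against 0.338 at the distal one. In the whole promoter table, replicated H3K27ac lay within 1 kb of 74.4% of 9600 CpG-rich starts and 24.4% of the 11663 others, and replicated H3K27me3 within 1 kb of 21.6% and 14.6%. The homeodomain motifs CTAATNG, TAATTAAT and TAATTA, searched on both strands, occurred in none of the 13 windows of these genes. TAATTA is part of TAATTAAT, so the last of these counts includes the one before it. In all 21263 windows the shares were 5.04%, 0.72% and 4.53%.

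**Figure D3:**
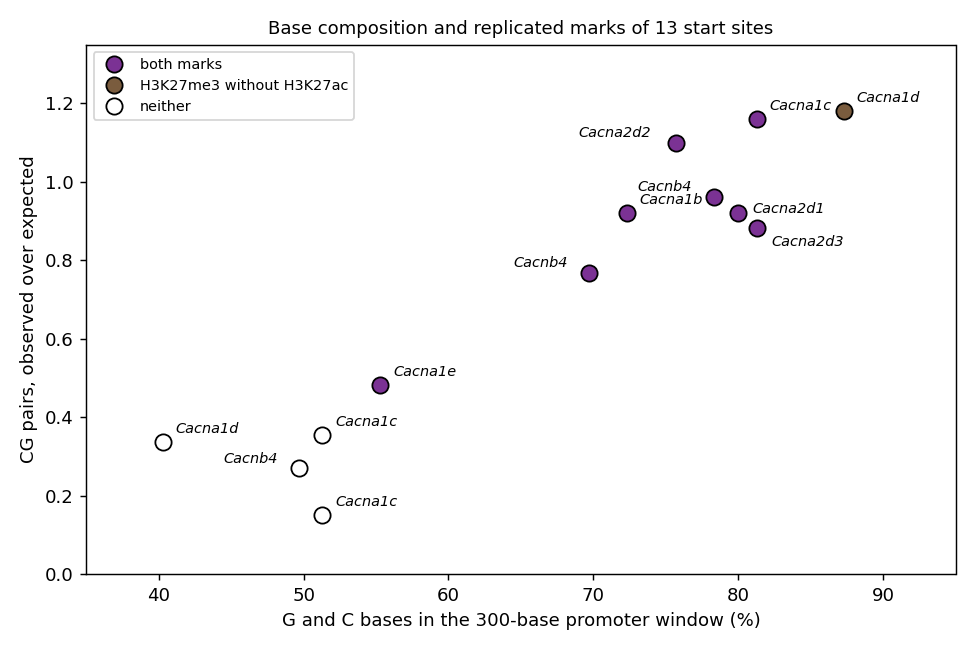
Ratio of observed to expected CG pairs (vertical) against the percentage of G and C bases (horizontal) in the 300-base promoter window of 13 start sites, coloured by replicated mark within 1 kb. The 4 starts without a mark have ratios of 0.152 to 0.355, and Cacna1e (0.482) is the marked start with the lowest ratio.

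ISL1 peaks were spread along the bodies of all 10 genes and were rarely called by more than 1 library. The 4 lists formed 491 regions in the gene windows, of which 66 (13.4%) were replicated. The replicated share was not counted over all ISL1 regions of the genome, so low agreement between lists cannot be read as a trait of these genes. Each gene had at least 1 replicated region, beside 45.6% of all protein-coding genes and 71.7% of the long ones. The long genes share only the lower limit of 62 kb, while these 10 genes run from 62 to 818 kb. Window length was thus not matched in this or the later counts by window, and a longer window has more room for a region. The counts were 11 at Cacna2d2, 10 at Cacna1c, 8 at Cacna1e, 7 at Cacna1h, 6 each at Cacna1a, Cacna2d1 and Cacnb4, 5 each at Cacna1b and Cacna2d3, and 2 at Cacna1d. Per 100 kb of window, Cacna1h (6.86) and Cacna2d2 (6.49) had the most and Cacna1d (0.407) and Cacna2d3 (0.583) the fewest. The median over the 10 genes was 1.65, against 0.780 over the long genes. Of the 66, 45 were called by 2 libraries, 16 by 3 and 5 by all 4 (7.58%, the same 7.58% as among the 20413 replicated ISL1 regions of the genome). ISL1_26 replicate 1 contributed to 49 of them and ISL1_70 replicates 1 to 3 to 54, 24 and 31. Without ISL1_26 replicate 1 there were 31 replicated regions, and without ISL1_70 replicate 1 there were 32, with none left at Cacna1d.

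Most ISL1 regions lay away from the starts. Of the 66, 59 lay in the gene body and 7 in the flanks, and 3 genes had one within 1 kb of a start (Cacna1b, Cacna1e and Cacnb4), beside 14.7% of all genes and 21.5% of the long ones. Each window is mostly gene body, with bodies of 62 to 818 kb and flanks of 20 kb each side. The surroundings of the starts are a small part of it. Densities of regions in bodies, flanks and starts were not compared, so these counts show no preference for any of them. Replicated H3K27ac overlapped 31 of the 66 (47.0%), beside 47.5% of all replicated ISL1 regions, and 15 had no H3K27ac peak of any library. Acetylation was on 17 of the 45 regions of 2 libraries, 9 of the 16 of 3 and 5 of the 5 of all 4. The regions also widened, with medians of 765, 1320 and 2120 bp, and the part of width in the acetylated share was not tested. Of the 5 regions of all 4 libraries, 3 lay at Cacna1e. Acetylated shares by number of libraries were not counted over all replicated ISL1 regions, so a trait of these genes cannot be read from them. Replicated H3K27me3 overlapped 6 regions, or 9.09% of the 66, beside 6.94% of all replicated ISL1 regions. They were the 3 at starts, the one at the upstream end of Cacna1e, one 1.68 kb inside the marked start of Cacna1c, and the one under the H3K4me3 replicate 2 peak of Cacna1a. Peaks of H3K4me3 replicate 2 overlapped 4 of these 6, and both regions at Cacna1e had a peak of the library labelled H3K4me3 replicate 1 alone.

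**Figure D4:**
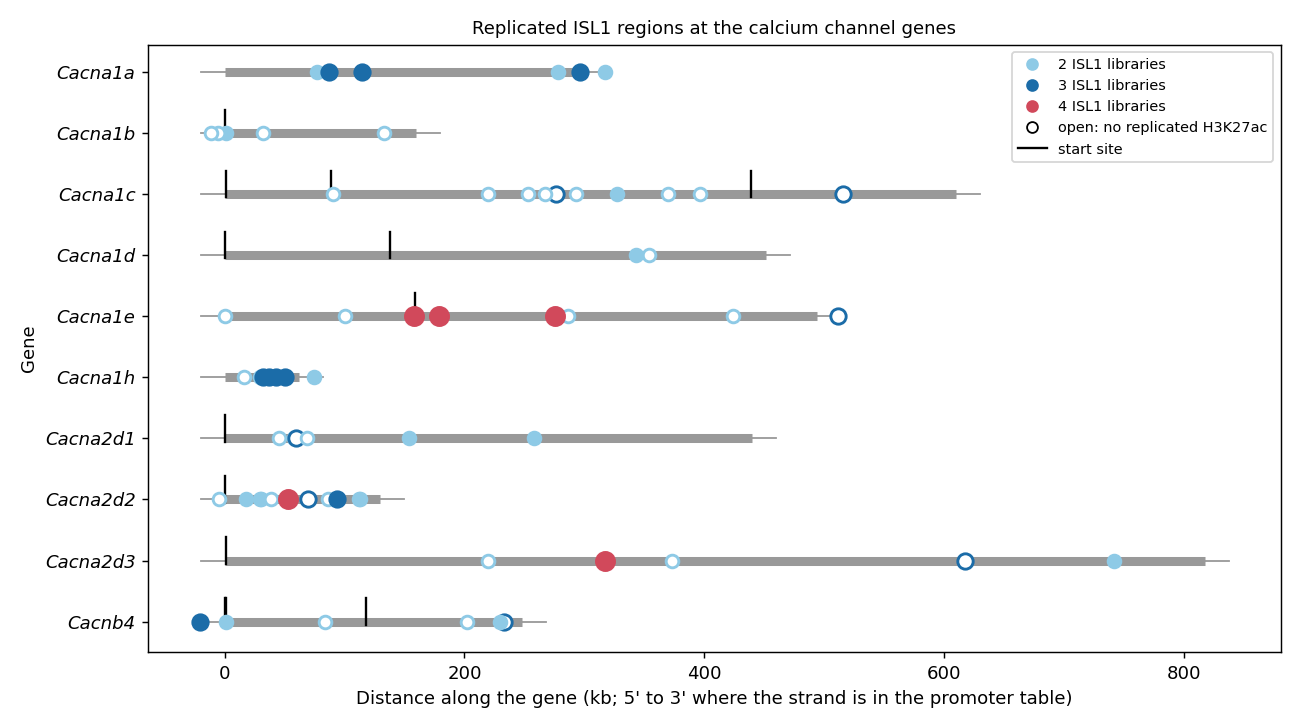
Position of the 66 replicated ISL1 regions (circles) along each gene (thick line) and its flanks of 20 kb (thin line), in kb from the upstream end, or from the left end for Cacna1a and Cacna1h; colour and size give the number of ISL1 libraries, and open circles have no replicated H3K27ac. The 5 regions of all 4 libraries are at Cacna1e (3), Cacna2d2 and Cacna2d3, and all are filled.

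Regions of all 4 ISL1 libraries lay at 3 of the 10 genes, beside 5.19% of all genes and 12.9% of the long ones, with window length not matched. Cacna1e, the R-type gene, held 3 of the 5. The strongest (chr1:154704652-154707064) lay 20.1 kb inside the gene from its start, with percentiles of 1.49 in ISL1_26 replicate 1 and 0.633, 1.44 and 1.56 in ISL1_70 replicates 1 to 3, so that each library had it among its best peaks. H3K27ac replicates 2 and 3 overlapped it at percentiles of 21.6 and 2.12, and no POU4F1 or H3K27me3 library did. The region 116 kb inside the gene (chr1:154608611-154610248) stood at 54.5, 6.11, 2.84 and 0.139, and no base of it lay under peaks of all 4 libraries. The region at the start (chr1:154725233-154728046) stood at 19.0, 31.3, 22.9 and 25.1.

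In Cacna2d2, whose loss gives the ducky mouse its ataxia, the region of all 4 libraries (chr9:107451335-107453220) lay 52.4 kb inside the gene. It stood at percentiles of 0.545, 0.595 and 0.423 in ISL1_26 replicate 1 and ISL1_70 replicates 1 and 2, but at 56.4 in ISL1_70 replicate 3. H3K27ac replicates 2 and 3 overlapped it at percentiles of 1.47 and 4.19, and POU4F1 replicate 1 at 46.8. In Cacna2d3, which has been linked to pain and hearing in mice, the region (chr14:29404837-29406955) lay 316 kb inside the gene and stood at 12.7, 3.14, 22.3 and 16.9, with H3K27ac replicates 2 and 3 at 17.7 and 8.20.

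The leading ISL1 regions of the other genes were called by 2 or 3 libraries. At Cacna1a it lay 115 kb from the left end (chr8:84453050-84453953), at percentiles of 1.26 in ISL1_26 replicate 1 and 2.50 and 2.99 in ISL1_70 replicates 1 and 2. POU4F1 replicate 1 overlapped it at percentile 3.09, and H3K27ac replicates 2 and 3 at 6.63 and 30.6. At Cacna2d1 it lay 58.8 kb inside the gene (chr5:15992593-15994405), at 0.204 in ISL1_26 replicate 1 and at 2.47 and 4.92 in ISL1_70 replicates 1 and 3. No H3K27ac library had a peak there, which sets it apart from the leading regions of the other 9 genes, each under at least 1.

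At Cacna1h, 4 regions of 3 libraries followed each other between 25405328 and 25424904 on chromosome 17, all under H3K27ac replicates 2 and 3. The leading one (chr17:25405328-25407689) stood at 3.76, 7.51 and 3.31 in ISL1_26 replicate 1 and ISL1_70 replicates 1 and 2. The leading region of Cacna1d (chr14:30147240-30148386) stood at 23.2 in ISL1_26 replicate 1 and 4.59 in ISL1_70 replicate 1, under H3K27ac replicates 2 and 3. Those of Cacna1b, Cacna1c and Cacnb4 had no replicated H3K27ac and mean percentiles of 42.9, 30.3 and 44.3. At Cacna1b the libraries differed most, with 1.26 in ISL1_70 replicate 1 and 84.5 in ISL1_70 replicate 3.

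POU4F1 was replicated at a single region of these genes. The libraries formed 114 POU4F1 regions in the windows, with 2 to 11 peaks per gene in replicate 1 and 1 to 9 in replicate 2, and they met at one place in Cacna2d2 (chr9:107417085-107417784), 17.6 kb inside the gene. Replicated POU4F1 regions lay at 2.45% of all genes and 5.01% of the long ones. Per 100 kb of pooled window there were 0.0243 at the 10 genes, 0.0232 at the long genes and 0.0294 at all genes. The replicated share of POU4F1 regions over the genome was not counted, so the single region is no trait of these genes. In the Cacna2d2 region, the POU4F1 peaks had folds of 11.8 and 12.9 and stood at percentiles of 7 and 51.9. A replicated ISL1 region overlapped it, from ISL1_26 replicate 1 (percentile 7.76) and ISL1_70 replicate 1 (64.0), as did H3K27ac replicates 2 and 3 (6.92 and 2.86). Regions shared in this way lay at 0.603% of all genes and 0.917% of the long ones. This shared region was lost without ISL1_26 replicate 1 or ISL1_70 replicate 1. A POU4F1 peak of either library overlapped 11 of the 66 replicated ISL1 regions, at Cacna1a, Cacna1c, Cacna1h, Cacna2d1, Cacna2d2 and Cacnb4, beside 17.2% of all replicated ISL1 regions. Of these, 9 met POU4F1 replicate 1 and 3 met replicate 2. With a single POU4F1 library every one of its peaks counts, and then all 10 genes had a region and 3 (replicate 2 alone) or 5 (replicate 1 alone) had a shared one.

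The 16 other genes of calcium channel subunits (α1, α2δ, β and γ) were counted in the same way. Replicated ISL1 regions lay at 11 of 16, and 1, Cacna1s, had a region of all 4 libraries. None had a replicated POU4F1 region, as for 9 of the 10 genes above. H3K27ac marked 8 and H3K27me3 marked 11, with both at one start or gene end in 5 (Cacna1g, Cacnb2, Cacnb3, Cacng2 and Cacng4) and neither in 2 (Cacna2d4 and Cacng8). The promoter table held 12 of the 16, and gene ends stood in for Cacna1g, Cacna2d4, Cacng1 and Cacng4. Among the 12, both marks lay at one start in 3 (Cacnb2, Cacnb3 and Cacng2) and neither in 1 (Cacng8). ISL1 marked the starts of 2, Cacnb3 and Cacng5. Their windows held 1.07 replicated ISL1 regions per 100 kb when pooled, against 1.6 for the 10 genes and 1.03 for the long genes.

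**Figure D5:**
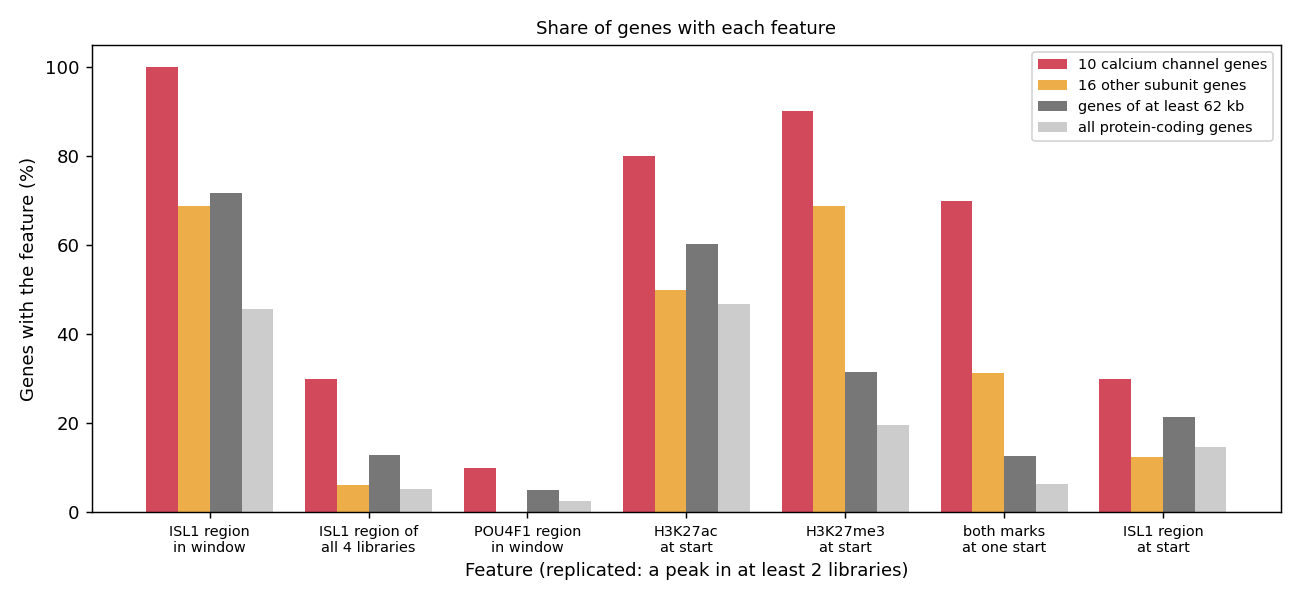
Percentage of genes with each feature (groups of bars) among the 10 calcium channel genes, the 16 other subunit genes, the 4033 genes of at least 62 kb and all 21887 protein-coding genes; bars start at 0, and regions are replicated ones. Both marks lie at one start in 7 of the 10 genes and in 6.44% of all genes.

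By the set of libraries with a peak at a start, Cacna1e (10 of the 14 libraries) had the same set as 3 other genes, Adamts18, Hsf4 and Pld1, and Cacna2d2 (9 libraries) the same set as Pnpla3 and Tpbgl, each at a Jaccard index of 1. The other 8 genes tied with 8 to 262 genes each. The windows are not free of other genes. That of Cacna2d2 holds Cyb561d2, Nprl2, Tmem115 and Zmynd10, and that of Cacna1h holds Tekt4, Tpsb2 and Tpsg1. Dcp1b lies in the window of Cacna1c, Chdh and Dcp1a in that of Cacna1d, Lrtm1 in that of Cacna2d3, and Arl5a and Stam2 in that of Cacnb4. No other protein-coding gene lies in those of Cacna1a, Cacna1b, Cacna1e and Cacna2d1. Cacna2d2 and Cacna1h have the windows with the most neighbouring genes and the highest densities of ISL1 regions. Cacna1h (62 kb) and Cacna2d2 (130 kb) are also the shortest of the 10 genes. The part of the neighbours or of gene length in those densities was not tested.

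The tissue was checked with markers of the cells it could hold. Replicated H3K27ac lay at the starts of 10 of 11 neuronal markers, 3 of 5 of glia and neural crest, 2 of 4 of otic epithelium, 1 of 5 of mesenchyme, 2 of 5 of endothelium and blood and 2 of 4 of muscle. Replicated H3K27me3 lay at 10, 4, 3, 5, 2 and 1 of them, and both at 9, 3, 2, 0, 0 and 0. Over all protein-coding genes, H3K27ac lay at 46.8%, H3K27me3 at 19.6% and both at 6.44%. Both marks thus lay at 9 of the 11 neuronal markers, beside 7 of the 10 channel genes. Each list of other cells had at least 1 acetylated start, but at the share over all genes such short lists cannot show which of these cells were present. The part of these cells in the marks of the channel genes was not tested.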

How the data were processed

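CUT&Tag libraries of mouse ganglia at E11.5 were analysed from the peak lists the authors deposited, 1 list for each of 14 libraries, without pooling. MACS2 called the peaks against a control, per the file headers (peak names); which control, and with what options, is not given in the sources used here. The submitters' processing notes also name FastQC, Bowtie2, SEACR and the genome build mm10, without roles or versions. The deposited columns hold a fold enrichment per peak (a ratio to the caller's background) and −log10 values of the p-value and the q-value, all from the authors' caller. The lowest −log10 q of any list is 1. These values rank peaks within a list and were not tested between lists, since the depth is unknown and a deeper library gives more peaks. Folds and percentiles of different lists are given side by side. A percentile also depends on the length of its list, so differences between libraries may partly reflect depth.

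The members and gene lists were chosen with earlier results of these data known. Genes came from RefSeq tables (GRCm38.p6), and start sites from the promoter table, which held 8 of the 10 genes. Overlapping peaks of a target (1 bp or more) were joined into regions, called replicated when at least 2 libraries had a peak in them. A shared region is a replicated ISL1 region overlapping a replicated POU4F1 region. A peak's percentile is its rank by −log10 q in its list, with ties ordered by fold and then position. Regions named are, per gene, the one of the most ISL1 libraries (ties by lowest mean percentile), every region of all 4, and every POU4F1 or shared region. No test between groups was run, since peak lists give no level per sample; Dixon's criterion was applied to the 4 ISL1 libraries to find values that stand apart. Alternatives were other flanks, start windows, q cutoffs, overlaps, list lengths and library requirements, and leaving out each library. The merging step was tested on simulated peaks. Python 3.11.15 with numpy 2.4.6 and matplotlib 3.10.9 was used.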

Additional observations from a re-analysis of the deposited data

Results flagged for a closer look

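In the 4 ISL1 libraries, peaks at each gene were set against 10000 peaks of the library's list, and ISL1_70 replicate 2, the shortest list, stood apart at 2 genes. At Cacna1c it had 5 peaks, or 2.03 per 10000, with the other libraries at 4.32 to 4.49. At Cacna1e it had 9 peaks, or 3.66 per 10000, with the others at 2.74 to 2.88. Both rates thus rest on few peaks. In both cases the gap to the nearest library, as a share of the whole range (0.93 and 0.848), exceeded Dixon's 95% critical value for 4 samples. Such a gap arises by chance in about 1 of 20 groups, and 11 groups were examined.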

How the results depend on the processing

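The count of genes with H3K27me3 at a start was 9, and under its 9 alternatives it ran from 6 to 10; leaving out 1 library gave 6 to 9. The other counts moved by more than 1.5 times under some settings. With only the 10000 best peaks of each library, genes with a replicated POU4F1 region and with a shared region went from 1 to 0, replicated ISL1 regions from 66 to 14, genes with H3K27ac at a start from 8 to 3, and genes with both marks at one start from 7 to 2. When a peak in every library of the target was required, genes with an ISL1 region went from 10 to 3, genes with a shared region to 0, ISL1 regions to 5, and H3K27ac and both marks to 3 genes each. Leaving out 1 library gave 9 to 10 genes with an ISL1 region, 31 to 56 ISL1 regions, 10 to 10 genes with a POU4F1 region (a single list is then left), 0 to 5 with a shared region, 3 to 7 with H3K27ac and 3 to 7 with both marks. Other flanks, start windows, overlaps or a −log10 q of at least 2 kept each count within 1.5 times. The alternatives for both marks were chosen after seeing the data. No paired analysis was possible because these counts come from no test between groups and the labels do not tie equal replicate numbers of different targets to one dissection. Depth is unknown, so a gene without a peak is one where none was called.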
